A study of Neocallimastix californiae and Anaeromyces robustus with 43 samples.

Results

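The set described here is 100 abundant messenger RNAs of Neocallimastix californiae, an anaerobic gut fungus, whose TPM changed least with the carbon source. TPM (transcripts per 1000000) is a level corrected for transcript length and scaled to a fixed total in each library. Steady here means steady on this scale. With a scale set by the bulk of the transcripts (TMM, described below), the same rule shared 17 of the 100. A transcript was eligible if its median TPM was at least 100 TPM on each of 8 carbon sources. Of 29649 transcripts, 655 passed this floor, and the 100 with the smallest ratio of the highest to the lowest carbon source median were taken. The choice therefore rests on the TPM of the same libraries, and the small ratio and the high level of the members are a description, not a finding. The members come from 97 loci.

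The 23 libraries of N. californiae are part of a series of 43 that also covers Anaeromyces robustus. Each holds RNA of the whole organism from a culture of about 10 ml of Medium C, kept at 39 °C and harvested in exponential growth at a gas pressure of at least 5 psi. The groups differ in the labelled energy source. These were glucose, the disaccharides maltose and cellobiose, the microcrystalline cellulose Avicel, 3 grasses (corn stover, switchgrass and reed canary grass) and the legume biomass alfalfa stems. There were 3 libraries per carbon source and 2 on switchgrass. The labels do not say whether replicates came from separate cultures, so a p-value reflects only how far these libraries scatter, and some of that scatter may be technical.

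Anaerobic gut fungi live in the gut of plant-eating mammals, attach to plant fragments and secrete enzymes that break down cell walls. They lack respiring mitochondria and gain energy by fermentation, partly in organelles called hydrogenosomes. Transcripts with an even level across conditions are of use as internal references, and in well-studied fungi such as Saccharomyces cerevisiae abundant messengers of growing cells often encode ribosomal proteins, translation factors and glycolytic enzymes. The files do not pair the identifiers of N. californiae with names or functions, so no role is given for any member, and a list of housekeeping genes could not be matched. Each identifier carries the locus and version of the transcript and ends in a figure labelled rpkm, and no source at hand explains that figure.

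The libraries held between 2583040 and 10816458 expected counts (median 4560473). Most members were well counted: 72 of the 100 had at least 1000 counts in every library. The lowest expected count of any member in any library was 67.8. Counting error alone corresponds to a coefficient of variation of 1.55% for the median member, and intervals from counts would cover that error only.

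The members ran from a ratio of 1.21 to 1.55 between their highest and lowest carbon source medians, with a median ratio of 1.45. In comparison, the 555 other transcripts past the floor had a median ratio of 2.17 and reached 46.6. The boundary was not a gap. The last members inside were Locus212v1rpkm1326.74 at 1.5403 and Locus233v1rpkm1111.89 at 1.5452, and the first transcripts outside were Locus40v1rpkm4848.30 at 1.5466 and Locus159v1rpkm1898.27 at 1.5474. The rule was also applied to A. robustus over its own carbon sources, which do not include alfalfa stems. It gave 459 transcripts past the floor and a ratio of 1.54 for the last of its 100. A ratio over fewer carbon sources tends to be smaller, so the fungi are not compared on like terms.

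Locus117v1rpkm2524.61 had the smallest ratio of all, 1.21. Its TPM was 2146, 2192 and 1836 on glucose, 2265, 2058 and 2015 on maltose, 2159, 1839 and 1794 on cellobiose, and 2372, 1867 and 2137 on Avicel. On the plant materials it was 2097, 2123 and 2129 on reed canary grass, 2060 and 2119 in the switchgrass libraries, 2340, 2087 and 2232 on corn stover, and 2129, 2280 and 1952 on alfalfa stems. The ranges of all 8 carbon sources overlapped. The lowest library was cellobiose replicate 3 and the highest Avicel replicate 1, and the whole span of 23 libraries was 1.32-fold.

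The next steadiest members were less abundant or more uneven between replicates. Locus745v1rpkm198.48 (ratio 1.22) ran from 123 to 169.7 TPM over the 23 libraries, with a median of 136.7. It was highest on cellobiose, at 153.8, 169.7 and 156.2 TPM, against 128.2, 123 and 127.6 TPM on reed canary grass, where it was lowest, and these groups did not overlap. Locus826v1rpkm167.88 (1.23) ran from 103.7 to 152.4 TPM, with its lowest library on corn stover and its highest on switchgrass.

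Locus100v1rpkm2856.61 (ratio 1.23) shows that an even median can hide an uneven library. Its TPM on glucose was 3818, 3925 and 5844, and on maltose 4085, 4282 and 5445, so that replicate 3 stood above the others on both sugars. Its 23 libraries spanned 1.93-fold. Locus504v1rpkm354.33 (1.26) had the same 2 libraries among its highest, at 305.1 TPM in glucose replicate 3 and 268.5 TPM in maltose replicate 3, beside a median of 226.9 TPM. Locus107v2rpkm1978.21 (1.26) ran from 1718 TPM on alfalfa stems to 2576 TPM on maltose.

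**Figure D1:**
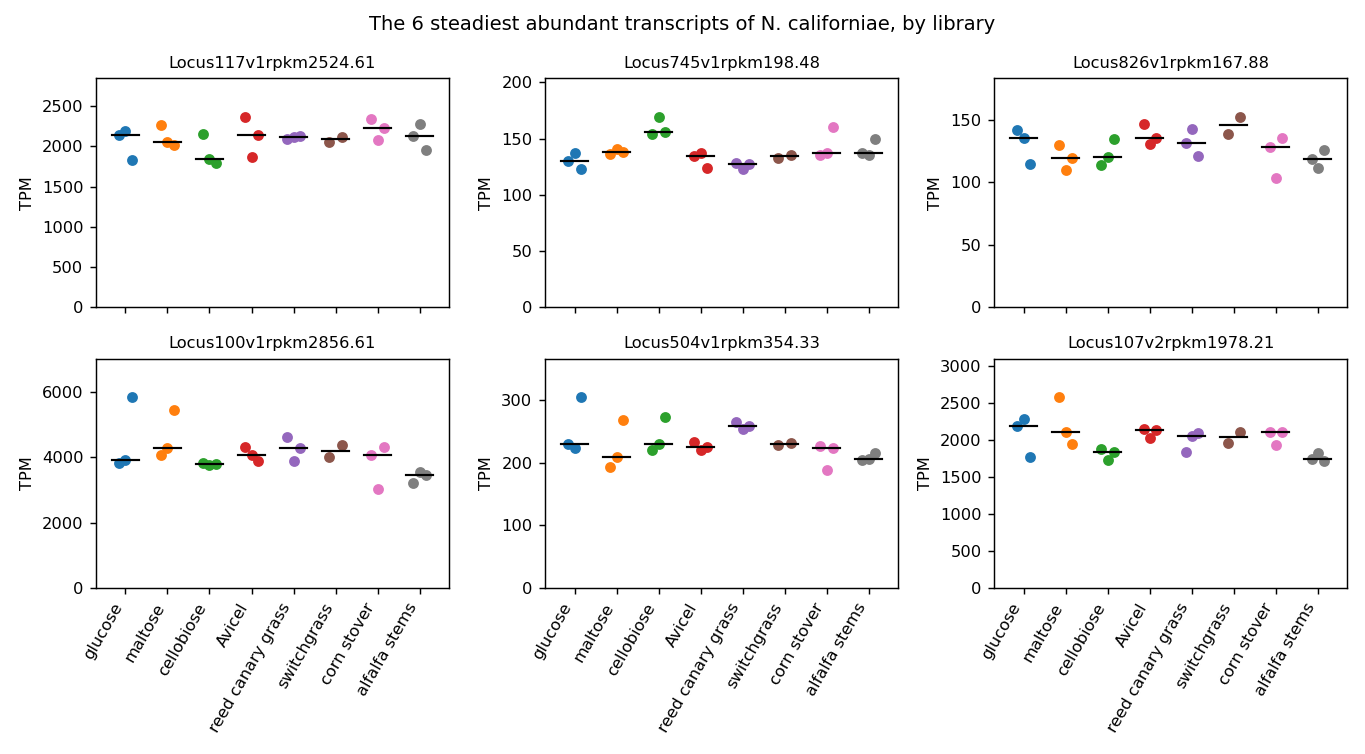
TPM (vertical axes, from 0) of the 6 members with the smallest ratio, 1 point per library, grouped by carbon source along the horizontal axis; bars are the medians that the rule used. The bars lie within 1.27-fold of each other in every panel, while single points such as glucose replicate 3 of Locus100v1rpkm2856.61 at 5844 TPM lie further off.

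The members covered a wide range of abundance. Their median TPM over 23 libraries ran from 126.6 to 9984, with a median of 1191 TPM over the members and 600.4 TPM over the other transcripts past the floor. Of the 177 transcripts with a median between 1000 and 3000 TPM, 23.2% were members, against 9.6% of the 250 between 300 and 1000 TPM. Members also lay below 300 TPM and above 3000 TPM, so these brackets do not describe the whole range.

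The most abundant member was Locus5v1rpkm10494.40. Its TPM was 11118, 9995 and 12799 on glucose and 12842, 12182 and 12671 on Avicel, but 8587 and 8210 in the switchgrass libraries and 8623, 7635 and 8953 on corn stover. All libraries of the last 2 grasses lay below all those of glucose and Avicel. Locus3v1rpkm11632.53 was likewise highest on Avicel, with a median of 8450 TPM, and had its lowest medians on alfalfa stems (5918 TPM) and corn stover (6146 TPM).

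The 2 members next in abundance had another order. Locus115v1rpkm2549.41 was 7162, 6860 and 7203 TPM on corn stover and 7237 and 6945 TPM on switchgrass, against 5206, 4243 and 4686 TPM on cellobiose. Locus41v1rpkm4782.84 was 6327 and 6661 TPM on switchgrass against 4554, 3916 and 4244 TPM on Avicel. For both, every grass library lay above every sugar library.

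At the lower end, Locus588v1rpkm288.24 ran from 85.6 TPM in maltose replicate 2 to 160 TPM in switchgrass replicate 2 (median 126.6). Locus727v1rpkm208.75 was highest on glucose, at 163.6, 174.7 and 127 TPM, and lowest on Avicel, at 116.6, 102.6 and 124.6 TPM, and only the lowest library on glucose came near those on Avicel.

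Together the members took an appreciable share of each messenger pool. Their summed TPM was 15.01% ± 0.172 of the total on glucose, 15.9% ± 0.555 on maltose, 14.3% ± 0.666 on cellobiose and 15.1% ± 0.877 on Avicel (SD, n = 3 each). It was 17.3% ± 0.311 on reed canary grass, 17.7% ± 0.503 on switchgrass (n = 2), 17.8% ± 0.305 on corn stover and 15.6% ± 0.682 on alfalfa stems (n = 3 otherwise). The 8 grass libraries, from 17.0% to 18.1%, lay above the 9 sugar libraries, from 13.6% to 16.5%. In bulk RNA such shares are relative, and more messenger of the members or less of the rest of the pool cannot be told apart.

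The carbon sources at which members were highest and lowest were not evenly spread, in medians that the rule itself used. Of the 100 members, 61 were highest on a grass (35 on corn stover, 17 on switchgrass and 9 on reed canary grass) and 58 were lowest on a sugar (39 on cellobiose, 13 on maltose and 6 on glucose). The other transcripts past the floor were highest on a grass in 45.05% of cases and lowest on a sugar in 35.9%. The grass median lay above the sugar median in 74 members, against 57.5% of the other transcripts past the floor. The median member stood 0.23 higher on the grasses on the log2 TPM scale, with a range from -0.45 to 0.55, and the median of the other transcripts was 0.24, so the size of the shift did not set the members apart.

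Every grass library was above every sugar library in 17 members, beside 13.9% of all 655 transcripts past the floor. The opposite held in 2 members, Locus79v1rpkm3330.25 and Locus682v1rpkm229.21, beside 13.4% of the 655. The first had 1975, 1755 and 1767 TPM on glucose and 1240, 1185 and 1327 TPM on corn stover. The second had 166.4, 171.6 and 177.8 TPM on glucose and 123.3 and 109.5 TPM on switchgrass. Both pairs of groups were apart, although neither ratio reached 1.5.

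The libraries of a member's highest and lowest carbon source did not overlap in 91 members, beside 93.9% of all 655, and overlapped in 9, among them Locus117v1rpkm2524.61 and Locus107v2rpkm1978.21. Since the rule used these contrasts, nothing is read from those shares.

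**Figure D2:**
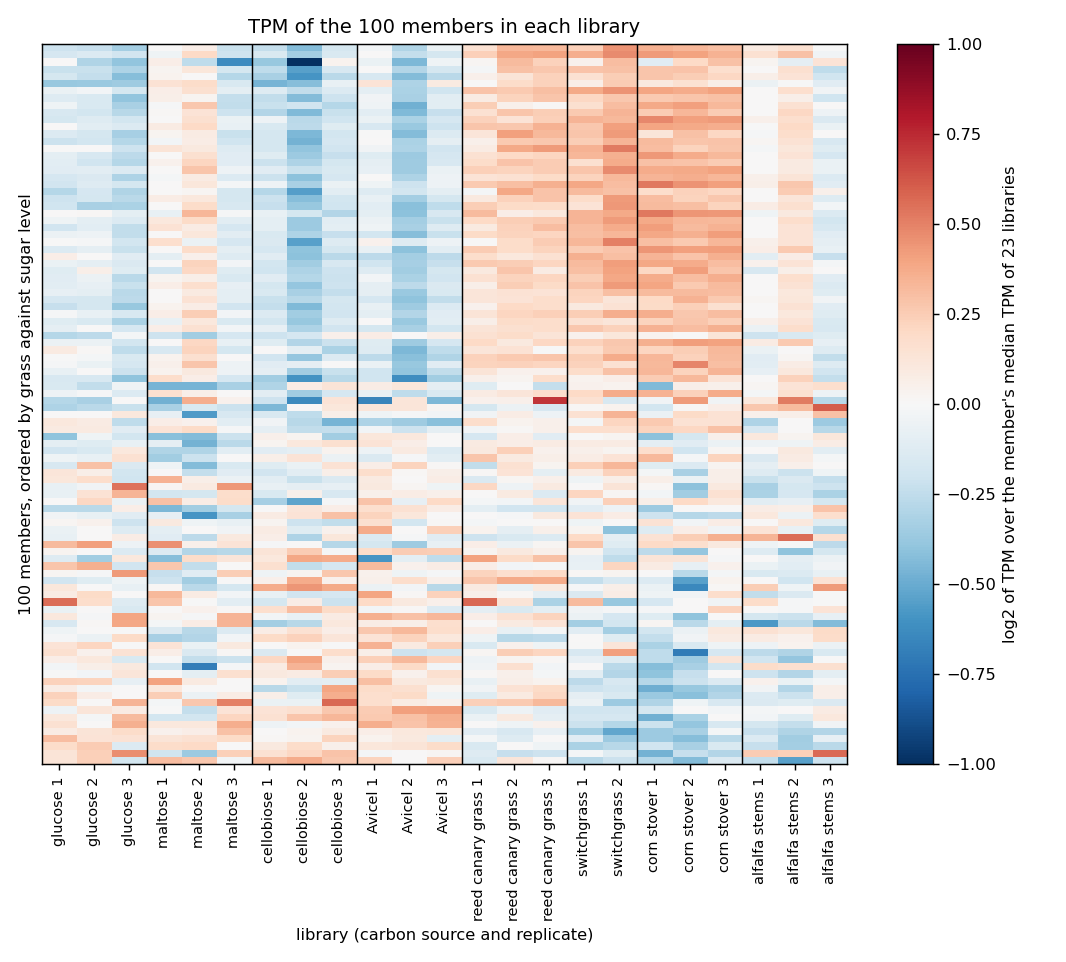
Each row is 1 of the 100 members and each column 1 of the 23 libraries, with lines between carbon sources; colour gives log2 of the TPM over the member's own median (scale -1 to 1), and rows are ordered by the grass level against the sugar level. The upper rows are higher on the 3 grasses and lower on the sugars, a smaller group at the foot has the opposite order, and 74 rows have a higher grass than sugar median.

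The spread between replicates was not a term of the rule, but scatter widens the ratio of medians that the rule kept small, so a low spread of the members is partly fixed by their choice and is given as a description. Within a carbon source the median coefficient of variation of the members' TPM was 7.13%, against 11.8% for the other transcripts past the floor. By carbon source the members' value in TPM was lowest on reed canary grass (4.84%), switchgrass (4.95%) and corn stover (5.19%) and highest on maltose (10.2%), and on each carbon source it was lower than that of the other transcripts, which ran from 8.95% on Avicel to 15.3% on maltose. On the TMM scale the order turned, with the members' highest values on switchgrass (23.2%), corn stover (17.3%) and reed canary grass (16.5%) and the lowest on cellobiose (8.15%). The members are also more abundant than the other transcripts, and the part of abundance in the difference was not tested.

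The span over single libraries is partly fixed by the choice, since the rule kept the medians of these same libraries close, and is given as a description. The ratio of the highest to the lowest of the 23 libraries ran from 1.32 to 2.60, with a median of 1.72, and 92 of the 100 stayed within 2-fold, against 19.3% of the other transcripts past the floor. The 3 members with the widest span were Locus26707v1rpkm0.00, Locus26743v1rpkm0.00 and Locus135v1rpkm2242.11.

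Locus26707v1rpkm0.00 spanned 2.60-fold, from 461.3 TPM in Avicel replicate 1 to 1197 TPM in reed canary grass replicate 3. Its replicates were far apart on most carbon sources, for instance 520.6, 934.7 and 747.8 TPM on maltose. Those maltose values rested on 89.3, 119.7 and 178.1 expected counts. Locus26743v1rpkm0.00 spanned 2.48-fold, from 890.7 TPM in cellobiose replicate 2 to 2212 TPM in reed canary grass replicate 2. The former value rested on 112.8 expected counts. The part of counting error in these spans was not tested. Locus135v1rpkm2242.11 spanned 2.16-fold, from 1315 TPM in corn stover replicate 2 to 2837 TPM in switchgrass replicate 2. Each of those 2 libraries stood away from the replicates beside it, at 1783 and 1895 TPM on corn stover and 1907 TPM on switchgrass.

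A library left out of the choice gives a value that the rule had not used, but not an independent one. The other libraries of its carbon source still entered the choice, and the transcripts compared were those with larger ratios. The values are therefore a description. Each of the 23 libraries was left out in turn, the 100 steadiest transcripts were chosen again from the remaining 22, and the TPM in the left-out library was compared with their median. Between 92% and 100% of the chosen transcripts lay within 1.5-fold of that median, against 62.4% to 87.2% of the other transcripts past the floor. The lowest value, 92%, belonged to cellobiose replicate 2, where the chosen transcripts lay 0.24 below their median on the log2 scale. A single chosen transcript in a single library, alfalfa stems replicate 3, was 2-fold or more away.

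The median deviation of the chosen transcripts was above 0 in each of the 8 left-out grass libraries, from 0.07 to 0.19 on the log2 TPM scale, and below 0 in each glucose, cellobiose and Avicel library. The maltose libraries were divided, at 0.0019, 0.066 and -0.13. So were the alfalfa stems libraries, at -0.035, 0.092 and -0.11. The median of the other transcripts past the floor was also above 0 in each grass library except corn stover replicate 1 (-0.048). Over the grasses that median reached 0.073, in switchgrass replicate 1. A direction above 0 on the grasses was thus not particular to the chosen transcripts. On each sugar the other transcripts were divided in sign, and on Avicel they lay below 0. Of the 100 members, 87 to 99 were chosen again in a run, and 60 were chosen in all 23 runs.

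**Figure D3:**
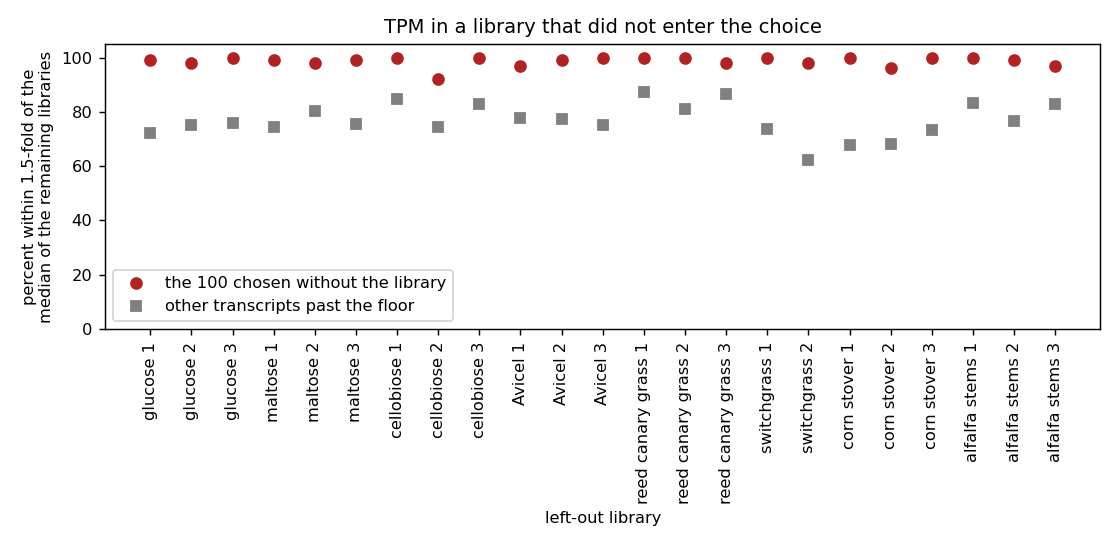
For each left-out library (horizontal axis), the percent of transcripts within 1.5-fold of the median of the remaining libraries (vertical axis, from 0): circles are the 100 transcripts chosen without that library, squares the other transcripts past the floor. The circles run from 92% to 100% and lie above the squares, from 62.4% to 87.2%, in every library.

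Whether these transcripts count as steady depends on the scale. TPM and CPM (counts per 1000000) by library size divide by the whole pool, whereas the TMM factors of edgeR (trimmed mean of M values) set the scale by the bulk of the transcripts. Against glucose, the median over the tested transcripts shifted between library size and TMM. By library size minus TMM the log2 shift was -0.0024 on maltose, -0.17 on cellobiose, -0.48 on Avicel, -0.39 on reed canary grass, -0.66 on switchgrass, -0.67 on corn stover and -0.30 on alfalfa stems. TMM factors ran from 0.64 to 1.43 and were above 1 in every glucose, maltose and cellobiose library.

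On the deposited TPM scale the median member differed from its level on glucose by 0.05 on maltose, -0.05 on cellobiose, 0.0033 on Avicel, 0.17 on reed canary grass, 0.23 on switchgrass, 0.26 on corn stover and 0.07 on alfalfa stems (log2). On CPM with TMM factors the same median was 0.05, 0.08, 0.56, 0.67, 1.15, 1.02 and 0.49. All 100 members lay above glucose on Avicel and on each grass on the TMM scale, and 98 did on alfalfa stems. On the TPM scale 50 of the 100 did on Avicel and 67 to 72 on the grasses. In TPM the lowest member against glucose stood at -0.56 on switchgrass and -0.54 on corn stover. The tested median shifted by more, -0.83 and -0.85 by TPM minus TMM. With TPM ratios kept small by the rule, levels above glucose on the TMM scale were largely fixed there, and nothing is read from them. The other transcripts past the floor had TMM medians of 1.23 on switchgrass and 1.08 on corn stover.

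The distance of the members from the median of the tested transcripts cancels most of the scaling by its construction. By this distance the members lay 0.57 higher on Avicel than on glucose in TPM and 0.63 higher by TMM, 1.29 and 1.38 higher on switchgrass, and 1.39 and 1.29 higher on corn stover. The other transcripts past the floor had nearly the same distances, 0.49 and 0.57 on Avicel and 1.29 and 1.46 on switchgrass, so abundant transcripts outside the set lay about as far from the tested median.

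**Figure D4:**
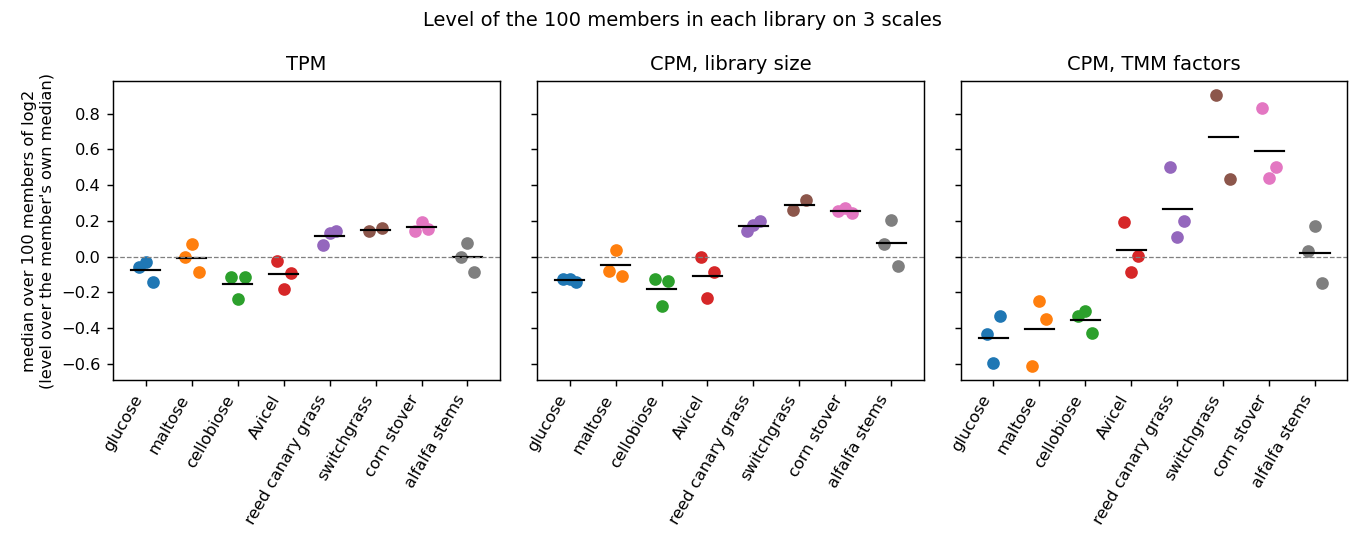
Median over the 100 members of log2 of the level over the member's own median (vertical axis), 1 point per library by carbon source, with the mean as a bar, on TPM, on CPM by library size, and on CPM with TMM factors. The points run from -0.23 to 0.20 in TPM and from -0.61 to 0.91 on the TMM scale, with the sugars low and the grasses high on the TMM scale, while in TPM maltose replicate 2 (0.070) lies just above reed canary grass replicate 1 (0.063).

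The ratio that defined the set widened accordingly. On the TMM scale the members' ratio of highest to lowest median ran from 1.38 to 2.96 with a median of 2.35, and 23 members stayed under 2, whereas by library size the median was 1.58 and 98 stayed under 2. The other transcripts past the floor had a median of 2.78 on the TMM scale. Applied to that scale, the rule shared 17 members with the set described here, and by library size it shared 64.

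The members that stayed evenest on both scales were few. Locus79v1rpkm3330.25 had the smallest TMM ratio of the set, 1.38 beside 1.43 in TPM, and Locus391v1rpkm542.78 had 1.43 beside 1.39. They, and the 3 in the next sentence, were chosen after their values were seen. Locus318v1rpkm737.64 (1.47), Locus396v1rpkm525.80 (1.48) and Locus682v1rpkm229.21 (1.53) followed on the TMM scale. All of these had their lowest TPM on switchgrass or corn stover.

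**Figure D5:**
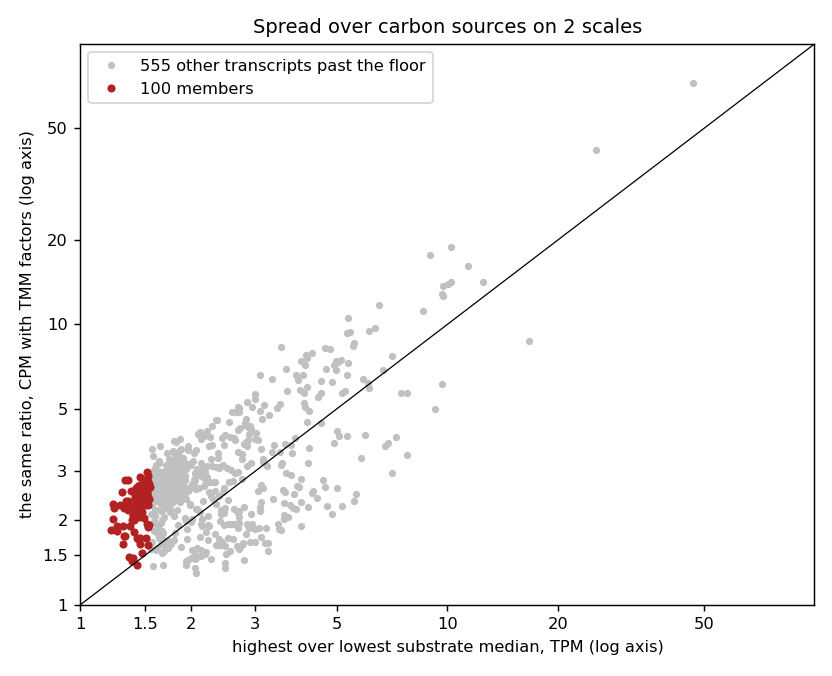
Ratio of the highest to the lowest carbon source median in TPM (horizontal, log axis) and in CPM with TMM factors (vertical, log axis) for the 100 members and the 555 other transcripts past the floor; the line marks equal ratios. The members' median is 1.45 in TPM and 2.35 on the TMM scale, so the cloud of members lies mainly above the line.

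The counts were then tested against glucose with edgeR's quasi-likelihood test on all 14800 transcripts that passed the filter on low counts, with TMM factors and Benjamini-Hochberg adjustment, and a call means an adjusted p under 0.05. All 100 members were tested. Since the rule used the same libraries, the counts of calls are a description beside the share of all tested transcripts, and nothing is read from their difference. Each comparison uses the same glucose libraries.

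Over any carbon source 97 members were called (62.5% of all tested). On maltose 0 members were called by edgeR (0.115% of all tested), 1 had an unadjusted p under 0.05, and DESeq2 called 0. On cellobiose 0 were called by edgeR (7.36% of all tested), 5 had an unadjusted p under 0.05, and DESeq2 called 0.

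On Avicel 54 members were called, all higher than on glucose (38.9% of all tested were called, 15.1% as higher). On the grasses all calls were higher too: 73 members on reed canary grass (34.4% and 13.8%), 91 members on switchgrass (37.6% and 15.9%) and 84 members on corn stover (33.4% and 15.1%). On alfalfa stems 47 members were called, all higher (29.4% and 13.2%). By library size in place of TMM, 5 members were called higher and 1 lower on Avicel (42.9% of all tested called), 47 higher and 1 lower on reed canary grass (42.5%), 55 higher and 2 lower on switchgrass (52.2%), 53 higher and 3 lower on corn stover (52.7%) and 34 higher and 4 lower on alfalfa stems (35.9%). The member called lower on Avicel was Locus727v1rpkm208.75, and those called lower on the plant materials, named after their calls were seen, were Locus79v1rpkm3330.25, Locus682v1rpkm229.21, Locus355v1rpkm630.35, Locus318v1rpkm737.64, Locus366v1rpkm616.50 and Locus5v1rpkm10494.40. Leaving out single libraries moved the TMM count on Avicel to 18 (glucose replicate 2), 31 (Avicel replicate 3), 87 (cellobiose replicate 2) and 88 (Avicel replicate 2). That on alfalfa stems was 13 and 20 without glucose replicate 2 and 1, and 20 and 18 without alfalfa stems replicate 1 and 2.

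How far a member could have changed is given by the interval of its fold. By TMM the 95% interval of the log2 fold against glucose lay within 2-fold either way for 100 members on maltose, 98 on cellobiose, 74 on Avicel, 33 on reed canary grass, 6 on switchgrass, 16 on corn stover and 69 on alfalfa stems. Over all tested transcripts the shares were 45.9%, 37.1%, 26.7%, 25.05%, 16.3%, 21.3% and 24.1% in the same order. The members lay below the general share on switchgrass and corn stover and above it elsewhere. By library size the members' counts were 100, 100, 98, 95, 89, 90 and 97, and the general shares 41.6%, 31.7%, 21.0%, 18.3%, 10.4%, 12.5% and 18.8%. The intervals are those of the model and cover the spread between these libraries. Since the rule used the same libraries, and the tested transcripts include many with lower counts, nothing is read from the differences.

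Locus117v1rpkm2524.61, the steadiest in TPM, shows the effect of the scale on 1 transcript. On corn stover against glucose its log2 fold change was 0.94 ± 0.20 by TMM (SE, edgeR adjusted p = 0.00124) and 0.29 ± 0.11 by library size (edgeR adjusted p = 0.0353). On switchgrass it was 0.90 ± 0.22 (edgeR adjusted p = 0.00376) and 0.19 ± 0.13 (edgeR adjusted p = 0.212).

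By TMM 28 members were called in all 5 of Avicel, the 3 grasses and alfalfa stems (8.93% of all tested) and 5 in no comparison (34.3%). By library size 1 member, Locus267v1rpkm921.00, named after its calls were seen, was called in all 5 (16.2% of all tested) and 26 in none (26.6%). Locus153v1rpkm1992.96, Locus323v1rpkm713.95 and Locus248v1rpkm1018.56 headed those called in all 5 by TMM. Locus153v1rpkm1992.96 had 1159, 1142 and 1054 TPM on glucose and 1714, 1682 and 1645 TPM on corn stover, groups that were well apart. Its log2 fold change on corn stover was 1.41 ± 0.18 by TMM (edgeR adjusted p = 5.36e-06) and 0.77 ± 0.11 by library size (edgeR adjusted p = 1.53e-05).

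Locus323v1rpkm713.95 had 3340, 3243 and 2903 TPM on glucose and 4442 and 4928 TPM on switchgrass. Its log2 fold change there was 1.58 ± 0.20 by TMM (edgeR adjusted p = 4.38e-06) and 0.89 ± 0.20 by library size (edgeR adjusted p = 0.00136). Locus248v1rpkm1018.56 had 777, 776.8 and 689.2 TPM on glucose and 985.9 and 1108 TPM on switchgrass, with 1.35 ± 0.19 by TMM (edgeR adjusted p = 1.19e-05). In each of these the switchgrass libraries lay above the glucose libraries.

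The 5 members called in no single comparison by TMM were Locus391v1rpkm542.78, Locus79v1rpkm3330.25, Locus366v1rpkm616.50, Locus355v1rpkm630.35 and Locus682v1rpkm229.21, named after their calls were seen. By library size Locus682v1rpkm229.21 was called lower on switchgrass, at -0.41 ± 0.13 (edgeR adjusted p = 0.0103), and by TMM its value was 0.31 ± 0.23 (edgeR adjusted p = 0.305). Its direction thus turned with the scale, as did that of Locus5v1rpkm10494.40 on corn stover, at 0.37 ± 0.21 by TMM (edgeR adjusted p = 0.189) and -0.26 ± 0.11 by library size (edgeR adjusted p = 0.0471).

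Several properties of the members played no part in the rule. Of the 100, 29 came from a locus with more than 1 version, against 22.3% of the other transcripts past the floor and 12.3% of all transcripts. Versions of a locus share reads, and the authors' estimates divide them, so the level of such a member depends on that division. In 18 members the sister versions held over 10% of the locus TPM and in 9 over 50%.

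Locus118v3rpkm533.81 was the member with the largest share held by sisters. It ran from 191.6 to 338.1 TPM (median 275.8), 6.39% of its locus, beside medians of 2225 TPM for version 2 and 1594 TPM for version 1, neither of which is a member. Locus251v1rpkm1003.88, at a median of 252.1 TPM, held 8.96% of its locus, and its sister, whose identifier ends in PRE, ran from 1605 to 3241 TPM. Both are minor versions beside more abundant sisters whose libraries span a wider range.

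There were 3 loci with 2 members each. Locus141v2rpkm1159.33 (ratio 1.32, median 423.1 TPM) and Locus141v1rpkm2174.19 (median 1568 TPM) kept their proportion, the former holding between 18.8% and 23.05% of the locus over the 23 libraries. In locus 107 version 2 held between 47.5% and 55.9%, and in locus 90 versions 2 and 3 held medians of 51.5% and 35.0%. Expected counts were not whole in the majority of libraries in 80 members, against 77.1% of the other transcripts past the floor, so reads were also divided for members whose locus has a single version.

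Length could be compared through the effective length, the expected counts over the TPM, scaled to the median member. The members ran from 0.0325 to 5.26 times that median, and the other transcripts past the floor had a median of 0.73. Across the members, length and median TPM had a Spearman correlation of -0.51 (n = 100 transcripts, which share libraries and are not independent). TPM is itself divided by length, and the length was computed from TPM, so a negative value is partly built in and nothing is read from it. The number in the identifier and the median TPM had a Spearman correlation of 0.75. None of the members has an identifier ending in PRE, as 2.78% of all transcripts have. Most of all transcripts lie below the floor that the members had to pass, so nothing is read from this difference.

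Of the 3 members with the widest span between libraries, 2 were among the shortest of the set. Locus27539v1rpkm0.00 and Locus26743v1rpkm0.00 had relative lengths of 0.0325 and 0.0369, and Locus26707v1rpkm0.00 one of 0.0513, and all 3 carry the number 0 in their identifier. Locus27539v1rpkm0.00 had 1664, 1709 and 1764 TPM on glucose and 2487, 2572 and 3145 TPM on alfalfa stems, which did not overlap. Its effective length relative to the median member differed 1.85-fold between cellobiose replicate 2, the lowest, and reed canary grass replicate 3, the highest, whereas that of members near the median length differed by 1.03-fold to 1.04-fold. The part of this length estimate in the TPM of the shortest members was not tested. The longest, Locus682v1rpkm229.21 and Locus504v1rpkm354.33, had relative lengths of 5.26 and 5.15 and levels of 157 and 226.9 TPM (medians).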

How the data were processed

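RNA of N. californiae was sequenced in 23 libraries with a stranded kit for polyadenylated RNA, per the labels' protocols. The authors deposited expected counts per transcript, estimated with RSEM per the submitters' processing notes, and TPM values from the same libraries. The sources used here name neither the reference transcripts nor read filters. Columns were matched to libraries by title.

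The members and the lists, tests and alternatives were chosen with earlier results of these data known. Members were found on the deposited TPM with no pseudocount. Named members were the extremes by ratio, level, span, calls, sister share and length, and those at the threshold.

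For tests, the deposited expected counts were rounded to whole numbers, filtered with filterByExpr (minimum count 10, minimum total 15), which kept 14800 transcripts with 99.8% of counts, and fitted over all 23 libraries with 1 mean per carbon source in edgeR 4.0.16 (R 4.3.3, TMM factors, robust quasi-likelihood). The biological coefficient of variation was 0.294. The script was tested on simulated data. Replicates of a group differed by more than sampling noise, with a chi-square per degree of freedom of 3.87 to 34.7. Alternatives were DESeq2 1.42.0, other scalings, no filter, other floors, the replicate block and each library left out. Summaries and plots used Python 3.11.15 and pandas 2.3.3.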

Additional observations from a re-analysis of the deposited data

How the results depend on the processing

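Of the 100 members, 86 were shared at a floor of 50 TPM, 89 at 200 TPM, 84 with means, 80 by the coefficient of variation over 23 libraries and 93 after summing per locus, but 37 without a floor, 17 on CPM with TMM factors and 26 on TPM over TMM factors. Alternatives added after seeing the data shared 64 (library size alone), 12 (DESeq2 size factors) and 89 (without cellobiose replicate 3 and glucose replicate 3). Calls by library size alone fell to 6 on Avicel, 48 on reed canary grass and 57 on switchgrass. The members' median log2 level against glucose by library size and in deposited TPM was 0.078 and 0.0033 on Avicel, 0.47 and 0.23 on switchgrass, 0.33 and 0.17 on reed canary grass, 0.44 and 0.26 on corn stover, and 0.22 and 0.075 on alfalfa stems. The replicate coefficient of variation was 15.01% on the TMM scale, and the median summed share was 13.3% of expected counts against 15.8% of TPM. These alternatives change the scale, the floor or the summary used, and the cause of each shift was not tested.

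With each library left out in turn, 87 to 99 members were chosen again. Calls ran from 90 to 100 over any carbon source, 0 to 2 on cellobiose, 18 to 88 on Avicel, 53 to 93 on reed canary grass, 69 to 99 on switchgrass, 73 to 95 on corn stover and 13 to 69 on alfalfa stems. On cellobiose the call was 1 without reed canary grass replicate 1, and 2 without switchgrass replicate 1, switchgrass replicate 2 or corn stover replicate 2. The TMM level on switchgrass ran from 0.89 without its replicate 1 to 1.39 without its replicate 2. DESeq2, DESeq2 size factors and no filter moved no count of member calls by over 1.5 times.

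No comparison with 3 pairs had all residual correlations over 0.1, so the main fit did not pair libraries by replicate number. Single pairs differed. With glucose replicate 3, the correlation was 0.42 for maltose replicate 3 and 0.45 for cellobiose replicate 3. The lowest was -0.082, for alfalfa stems replicate 1. Whether libraries of the same replicate number share an effect was not tested further. With the replicate block, calls were 97 over any carbon source, 0 on maltose, 0 on cellobiose, 56 on Avicel, 75 on reed canary grass, 93 on switchgrass, 85 on corn stover and 50 on alfalfa stems.

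Depth limits little here, but TPM and CPM are relative, so no statement about absolute amounts of messenger is possible. Most members rest on divided reads, also where their locus has a single version. The 4 with fewer than 200 counts in some library have the largest counting error. They are Locus1277v1rpkm88.22, Locus26707v1rpkm0.00, Locus26743v1rpkm0.00 and Locus27539v1rpkm0.00.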
